A study of Arabidopsis thaliana with 12 samples.

Results

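UDP-glycosyltransferases and beta-glucosidases are described here as 68 Arabidopsis thaliana genes measured in basal stems of C3H14 and C3H15 overexpressors, the double mutant and wild type. The genes are those whose symbol in the array's annotation or in the RefSeq gene table is UGT or BGLU followed by a number, plus AT5G05890, which was added by name as a UDP-glycosyltransferase. The brightest probe set that matched a single gene was taken for each, which gave 48 UGT genes (AT5G05890 included) and 20 BGLU genes among 13513 single-gene probe sets and 22746 probe sets tested. Another 6 genes carry such a name only as a synonym. A further 4 probe sets match a UGT or BGLU gene outside the 68 together with another gene, and these 10 stayed outside the counts.

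C3H14 and C3H15 are related CCCH zinc finger proteins, and secondary wall metabolism and pollen formation are the stated themes of the series. RNA came from the lowest 4 cm of inflorescence stems that were 12 to 17 cm tall, and 1 Affymetrix array was run for each sample. All plants were of ecotype Col-0 and were grown side by side in a glasshouse at 22 °C with 16 h of light and 8 h of dark. The 12 arrays form 4 groups of 3: C3H14-OE, plants that overexpress C3H14; C3H15-OE, plants that overexpress C3H15; c3h14c3h15, the double mutant; and WT. The labels name neither the promoter that drives overexpression nor the mutant alleles. The labels do not say whether a group of overexpressor arrays stands for 3 transgenic lines or for 3 plants of a line, so a p-value reflects the spread among the samples as they were taken.

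UDP-glycosyltransferases move a sugar, most often glucose, from a UDP-sugar onto a hormone, a phenolic compound or another small acceptor, which usually makes it soluble, inactive and ready for storage in the vacuole. Beta-glucosidases of the BGLU family run the opposite way and release the aglycone from its glucoside. In a stem, the pair of families handles lignin precursors and their glucosides, hormone conjugates, flavonoids and glucosinolates.

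The arrays were checked before the members were compared. C3H14 (AT1G66810) read 8.43, 9.10 and 7.07 on the log2 intensity scale in C3H14-OE, 5.18, 5.39 and 5.99 in C3H15-OE, 6.55, 6.43 and 6.08 in c3h14c3h15, and 7.01, 6.12 and 7.43 in WT. C3H14-OE replicate 3 lay within the WT range, and the difference between C3H14-OE and WT was 1.34 on the log2 scale (adjusted p = 0.258, limma). The position of this probe set relative to the mutation is not stated and the probe set of C3H15 is unnamed here, so the mutant and C3H15-OE labels could not be checked in this way. On the first principal component of all probe sets (44.5% of the variance) C3H14-OE replicate 3 scored 40.8, within the C3H15-OE range of 27.6 to 48.1, whereas replicates 1 and 2 scored 14.6 and 8.1. For WT, replicate 2 (-5.2, against -24.2 and -31.3 for the other arrays) and c3h14c3h15 replicate 1 (-18.5, against -57.1 and -44.7) also stood apart, and counts are given with and without these 3 arrays. Of 9 stem xylem and fibre markers 3 were named (IRX15, IRX15L and IRX10, which serve xylan synthesis in secondary walls), and the log2 of their summed intensity ran from 9.49 to 9.74 in C3H14-OE, 8.59 to 9.78 in C3H15-OE, 11.1 to 11.4 in c3h14c3h15 and 10.2 to 10.4 in WT. All 3 were lower in C3H15-OE than in WT (adjusted p = 0.0205, 0.0204 and 0.0394, limma), and IRX15 and IRX15L were higher in c3h14c3h15 (0.0454 and 0.0242). IRX10 did not pass in c3h14c3h15 (0.173), and in C3H14-OE all 3 were lower than in WT without passing (0.239, 0.273 and 0.292). Both named green tissue markers of 3, LHCB4.1 and PRK, missed the threshold against WT, and the log2 of their summed intensity was 11.7 to 12.1 in C3H14-OE, 11.8 to 12.1 in C3H15-OE, 12.6 to 13.1 in c3h14c3h15 and 12.3 to 12.4 in WT. The 3 anther and pollen markers and the root marker PYK10 stayed dim, with group means of 1.96 to 3.48, and none of the 3 phloem or 3 epidermis markers was named. The summed signal of the xylem markers moved with the groups, and the markers' part in the member results below was not tested. In a whole stem segment fewer cells of a type and less RNA per cell cannot be told apart.

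The members ranged from genes with a clear stem signal to genes near the array's floor. Averaged over all arrays, 28 members lay above the 40th percentile of all probe sets (4.84 on the log2 scale) and 40 lay at or under it. The 40 include UGT72E1, UGT72E3, UGT71B6, UGT71C3, BGLU31 and BGLU41, each of which passed the threshold in a comparison below. The probe sets with the strongest signal among the beta-glucosidases were those of BGLU45 (9.80), BGLU44 (9.14) and BGLU33 (8.71), and among the glycosyltransferases those of UGT88A1 (9.19), UGT74B1 (9.07) and UGT71C4 (7.75). Probe sets differ in how brightly they bind, so these values mark strong signals and set no order of transcript abundance between genes.

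**Figure D1:**
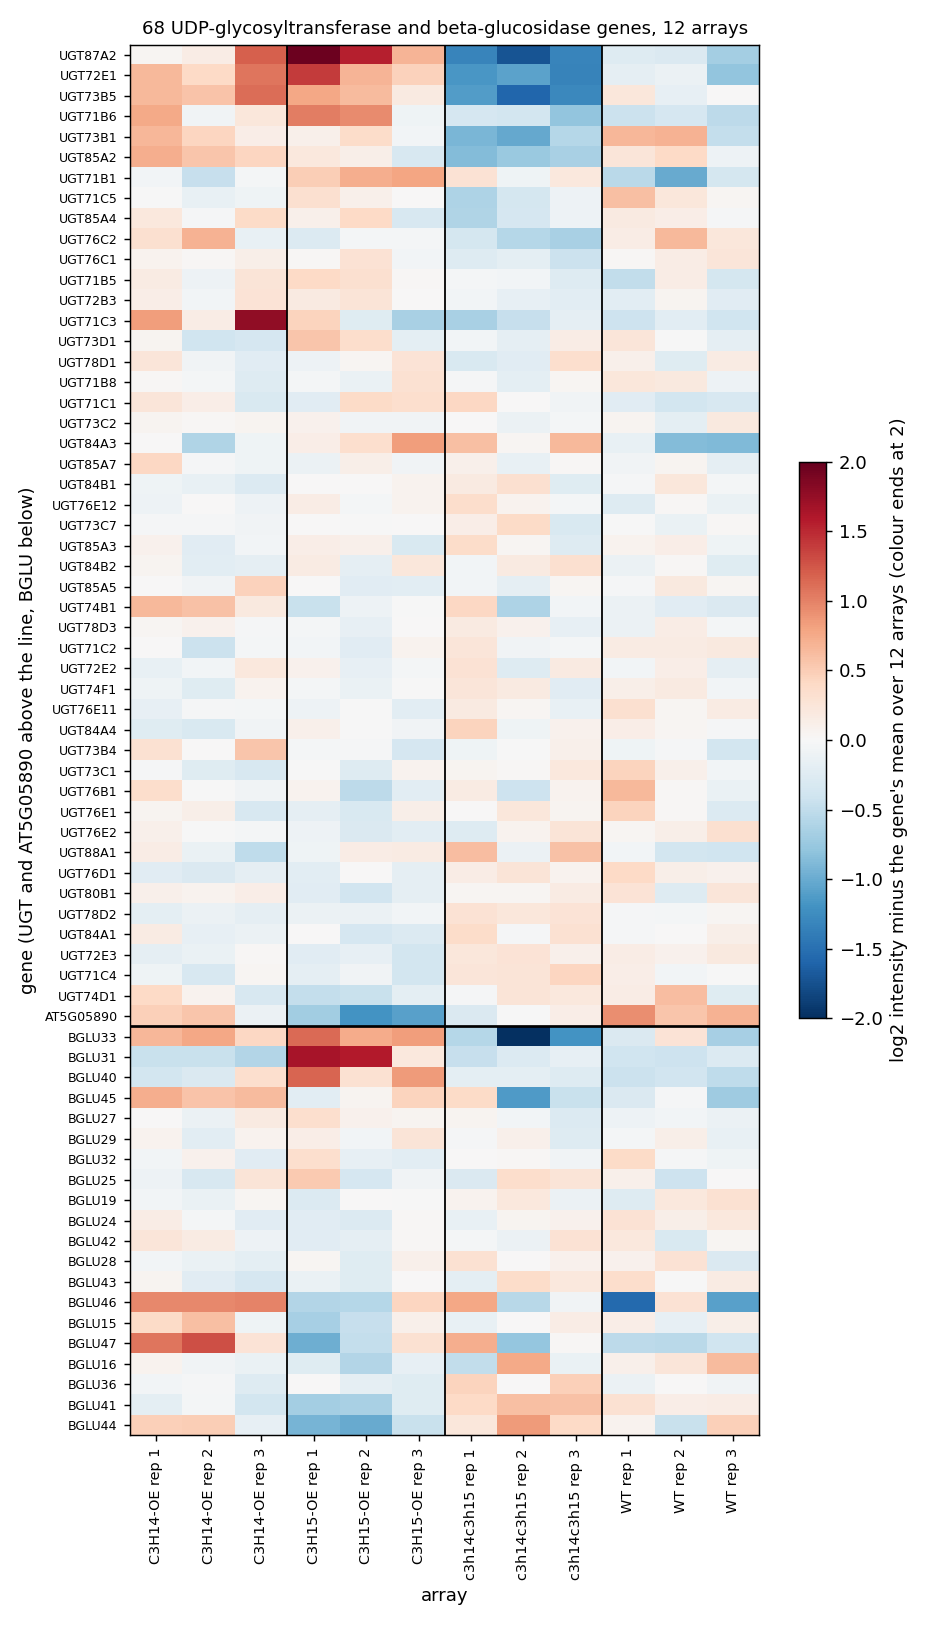
Each row is a gene and each column an array; colour gives the log2 intensity minus that gene's mean over the 12 arrays, with the scale ending at 2 in either direction. UGT87A2, UGT72E1, UGT73B5 and BGLU33 are above their mean in most or all overexpressor arrays and below it in the 3 c3h14c3h15 arrays, whereas AT5G05890 is lowest in C3H15-OE.

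A member is counted as changed where the limma p, adjusted by Benjamini-Hochberg over all 22746 probe sets, was under 0.05. In C3H15-OE 10 of the 68 members (14.7%) differed from WT, 7 higher and 3 lower, against 6.65% of all probe sets (3.09% higher and 3.57% lower). In c3h14c3h15 8 members (11.8%) differed from WT, 2 higher and 6 lower, against 5.70% of all probe sets (2.53% higher and 3.17% lower). All 8 were glycosyltransferases and came from the 28 members with the stronger signal, while 0 of the 20 beta-glucosidases passed; at an unadjusted p under 0.05 there were 3 of 20, where 21.8% of all probe sets passed. The 10 changes in C3H15-OE were 7 of the 48 glycosyltransferases and 3 of the 20 beta-glucosidases, and 5 came from the stronger 28. Whether the families differ was not tested.

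In C3H14-OE 0 members differed from WT by limma after adjustment, and 0.0440% of all probe sets did. At an unadjusted p under 0.05 there were 13 members higher and 6 lower, against 6.41% and 7.57% of all probe sets. The 3 C3H14-OE arrays lay entirely outside the 3 WT arrays for 24 members, 13 higher and 11 lower, against 9.31% and 11.9% of all probe sets. These 3 comparisons share the WT arrays. The members' median log2 difference from WT was 0.00 for C3H14-OE, -0.05 for C3H15-OE and -0.02 for c3h14c3h15, where the medians over all probe sets were -0.04, -0.03 and -0.01.

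Set against the double mutant, 19 members (27.9%) differed in C3H15-OE, 11 higher and 8 lower, where 23.0% of all probe sets did (12.3% higher and 10.7% lower). In C3H14-OE 13 members (19.1%) differed from the double mutant, 9 higher and 4 lower, where 14.7% of all probe sets did (7.89% higher and 6.86% lower). Both shares are near the share over the whole array. These 2 comparisons share the c3h14c3h15 arrays. Between the overexpressors, 1 member differed, against 0.123% of all probe sets; this was AT5G05890, which had been added by name with earlier results known. Without it the counts were 0 of 67 between the overexpressors, 9 in C3H15-OE and 7 in c3h14c3h15 against WT, 18 in C3H15-OE against the double mutant and 18 by the F test. The F test for any difference among the 4 groups took 19 members (27.9%) and 19.1% of all probe sets.

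Without the 3 arrays that stood apart, 13 members differed from WT in C3H15-OE (8 of the 10 among them), 2 in c3h14c3h15 (UGT73B5 and UGT76C2) and 1 in C3H14-OE (BGLU46). The 3 arrays were chosen from these same data, so this fit can narrow the spread within groups by construction. Against the double mutant there were then 20 in C3H15-OE and 13 in C3H14-OE, and 4 differed between the overexpressors. In that fit 12.7% of all probe sets differed from WT in C3H15-OE, 1.68% in c3h14c3h15 and 0.835% in C3H14-OE, while 24.8% and 11.1% differed from the double mutant in C3H15-OE and C3H14-OE, and 1.11% between the overexpressors.

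UGT73B5, a glycosyltransferase of redox balance and pathogen defence, was lowest in the double mutant. Its log2 intensity was 5.90, 5.83 and 6.37 in C3H14-OE, 6.03, 5.89 and 5.43 in C3H15-OE, 4.14, 3.67 and 3.96 in c3h14c3h15, and 5.48, 5.10 and 5.26 in WT. The 3 double mutant arrays were the lowest of the 12, more than 0.9 below every other array, and the C3H15-OE arrays overlapped WT. UGT73B5 fell by 1.35 on the log2 scale in c3h14c3h15 relative to WT (SE 0.19, 2.55-fold, adjusted p = 0.00620, limma), and this call held under every alternative that refitted the data. It was 2.11 higher in C3H14-OE than in the double mutant (SE 0.19, adjusted p = 0.000521) and 1.86 higher in C3H15-OE (adjusted p = 0.000253). The C3H14-OE arrays all lay above WT, by 0.76 on average, with an adjusted p of 0.191. Its chromosomal neighbour UGT73B4 gave dim values with group means from 3.77 to 4.22 and no change in any of the 6 comparisons.

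UGT87A2, which acts in flowering time and stress responses, had the widest range of all 68 members. It read 7.09, 7.19 and 8.24 in C3H14-OE, 9.01, 8.60 and 7.73 in C3H15-OE, 5.73, 5.32 and 5.72 in c3h14c3h15, and 6.79, 6.76 and 6.36 in WT. The order was the same group by group: every overexpressor array lay above every WT array, and every WT array above every double mutant array. UGT87A2 rose by 1.81 in C3H15-OE relative to WT (SE 0.34, 3.50-fold, adjusted p = 0.0145, limma). The double mutant was 1.05 lower than WT with an adjusted p of 0.0922, and C3H14-OE was 0.87 higher with 0.306, neither past the threshold. Relative to the double mutant UGT87A2 was 7.25-fold higher in C3H15-OE (log2 difference 2.86, adjusted p = 0.000452) and 3.79-fold higher in C3H14-OE (1.92, adjusted p = 0.00522). Its difference between C3H15-OE and WT missed the threshold without C3H15-OE replicate 1 or 2 or WT replicate 1 or 3, with adjusted p from 0.0566 to 0.0606 and differences of 1.52 to 1.88.

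**Figure D2:**
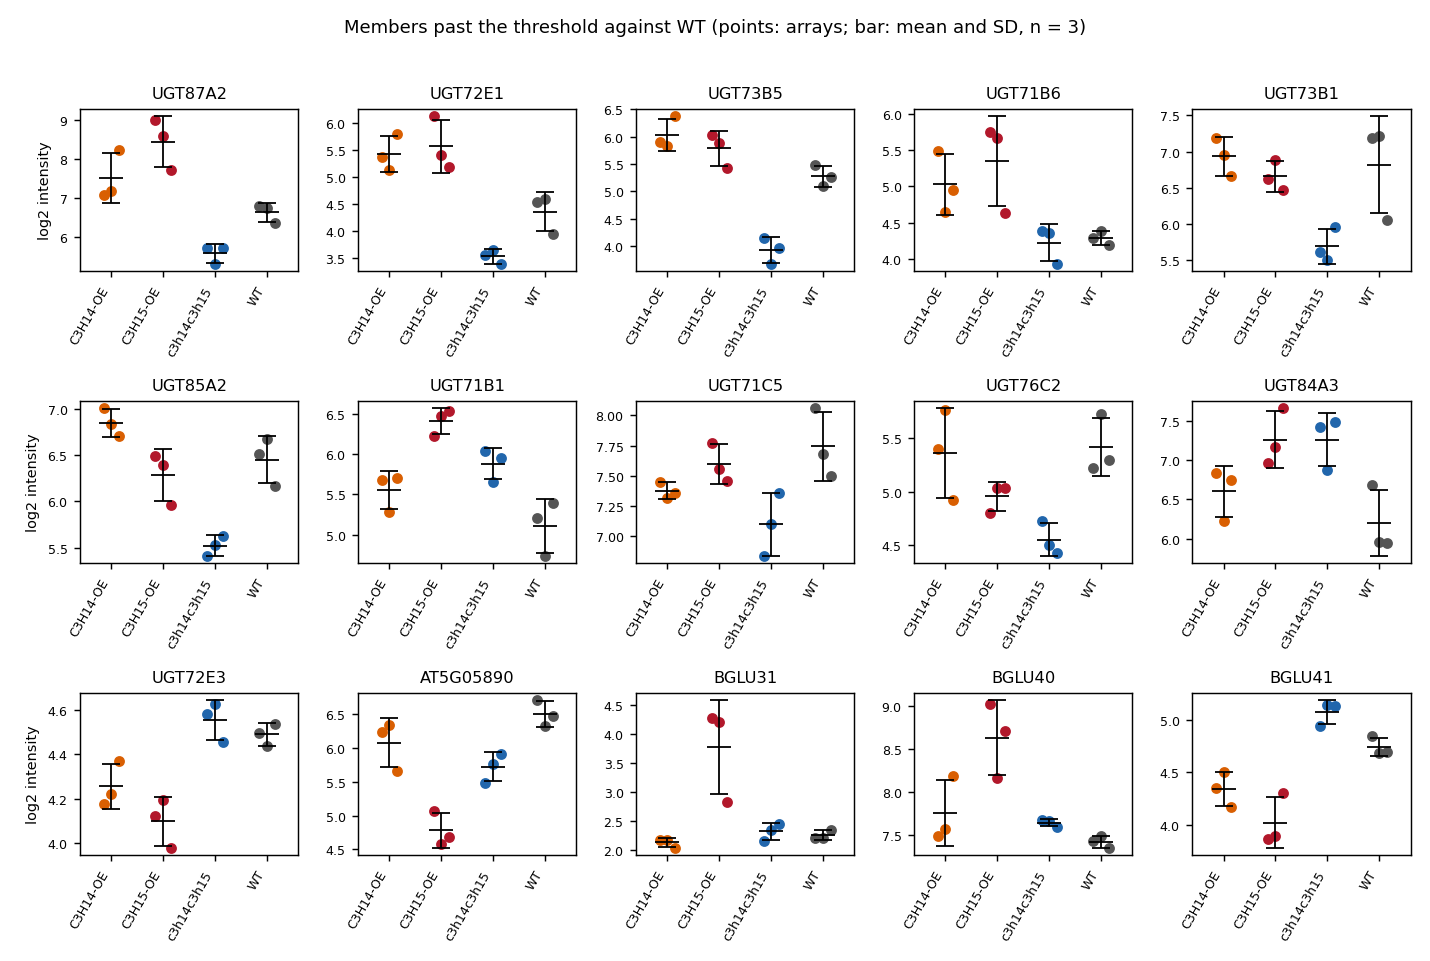
Log2 intensity of the 15 members that passed the threshold against WT in C3H15-OE, in c3h14c3h15 or in both; points are arrays, and the bars give the mean and SD (n = 3), on an axis of its own for each gene. UGT73B5 and UGT85A2 are lowest in c3h14c3h15, AT5G05890 and BGLU41 are lowest in C3H15-OE, and UGT71B1 and UGT84A3 are higher than WT in both of these groups.

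Lignin precursors and hydroxycinnamates are the substrates of 9 measured members of 10 listed, and their responses differed gene by gene. UGT72E1, which glucosylates coniferaldehyde and sinapaldehyde, read 5.37, 5.13 and 5.79 in C3H14-OE, 6.12, 5.40 and 5.18 in C3H15-OE, 3.56, 3.66 and 3.39 in c3h14c3h15, and 4.54, 4.60 and 3.94 in WT. Both overexpressor groups lay above WT and the double mutant below it, with no overlap. UGT72E1 rose by 1.21 in C3H15-OE relative to WT (SE 0.25, adjusted p = 0.0208, limma), whereas C3H14-OE was 1.07 higher with an adjusted p of 0.172 and c3h14c3h15 was 0.82 lower with 0.0792. Relative to the double mutant it was 2.03 higher in C3H15-OE (4.09-fold, adjusted p = 0.000533) and 1.89 higher in C3H14-OE (3.71-fold, adjusted p = 0.00161). Without C3H15-OE replicate 1 or 2 or WT replicate 1 or 3, its adjusted p for C3H15-OE against WT was 0.0553 to 0.0761.

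Among the members, the monolignol UDP-glucosyltransferases UGT72E3 and UGT72E2 did not share that pattern. UGT72E3, which glucosylates sinapyl alcohol, read 4.18, 4.22 and 4.37 in C3H14-OE, 4.12, 4.19 and 3.98 in C3H15-OE, 4.58, 4.63 and 4.46 in c3h14c3h15, and 4.50, 4.44 and 4.54 in WT. Both overexpressor groups lay below the other arrays, by a small step. UGT72E3 was lower in C3H15-OE than in WT by 0.39 (fold 1.31, adjusted p = 0.0406, limma) and lower than in the double mutant by 0.46 (adjusted p = 0.00790). The difference from WT missed the threshold without any of 8 arrays (C3H14-OE replicates 1 and 2 and every C3H15-OE and WT array), with adjusted p from 0.0529 to 0.119, and also on both other normalizations, with the arrays compared alone, with the replicate block and with an intensity trend. UGT72E2, the coniferyl alcohol glucosyltransferase, had group means of 4.62 in C3H14-OE, 4.57 in C3H15-OE, 4.68 in c3h14c3h15 and 4.58 in WT, and changed in no comparison.

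Among the enzymes that make glucose esters of hydroxycinnamic acids, UGT84A3 stood out, with higher levels in C3H15-OE and c3h14c3h15. Its arrays gave 6.83, 6.23 and 6.75 in C3H14-OE, 6.96, 7.17 and 7.67 in C3H15-OE, 7.43, 6.87 and 7.49 in c3h14c3h15, and 6.68, 5.96 and 5.95 in WT. C3H15-OE and c3h14c3h15 lay wholly above WT, while C3H14-OE overlapped it. The log2 difference from WT was 1.07 in C3H15-OE (SE 0.26, adjusted p = 0.0340, limma) and 1.07 in c3h14c3h15 (SE 0.26, adjusted p = 0.0354). Both calls depended on single arrays. Without any C3H15-OE array, WT replicate 2 or WT replicate 3, the adjusted p in C3H15-OE was 0.0656 to 0.114. Without C3H15-OE replicate 2, c3h14c3h15 replicate 1 or 3 or WT replicate 2 or 3, that in c3h14c3h15 was 0.0507 to 0.107. Both were lost without the 3 arrays that stood apart, and that in c3h14c3h15 also with array weights and with only the arrays compared. Its neighbours UGT84A1 and UGT84A4 were dim, with group means of 3.37 to 3.79 and 4.22 to 4.57, and neither differed from WT.

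The beta-glucosidases BGLU45 and BGLU46, adjacent genes whose products hydrolyse monolignol glucosides, and BGLU47 of the same clade were higher in C3H14-OE than in WT without passing the threshold. BGLU45 read 10.52, 10.37 and 10.43 in C3H14-OE, 9.59, 9.85 and 10.24 in C3H15-OE, 10.18, 8.66 and 9.35 in c3h14c3h15, and 9.51, 9.78 and 9.08 in WT. BGLU46 read 7.78, 7.78 and 7.79 in C3H14-OE, 6.22, 6.24 and 7.24 in C3H15-OE, 7.58, 6.26 and 6.74 in c3h14c3h15, and 5.25, 7.10 and 5.73 in WT. For both genes the C3H14-OE arrays were close together and above the other 9 arrays, while the other groups were scattered and overlapped each other. The C3H14-OE minus WT difference was 0.98 for BGLU45 (adjusted p = 0.241, limma), 1.75 for BGLU46 (SE 0.45, 3.37-fold, 0.190) and 1.36 for BGLU47 (0.209). BGLU46 passed only without the 3 arrays that stood apart (difference 2.29, adjusted p = 0.0181). That fit drops WT replicate 2, the WT array nearest to C3H14-OE for this gene (7.10), so it is no independent support. BGLU45 was higher in C3H14-OE than in the double mutant by 1.05 (adjusted p = 0.0467), but the adjusted p was 0.0536 to 0.134 without any of 8 arrays, namely every C3H14-OE array, C3H15-OE replicates 1 and 2, c3h14c3h15 replicates 2 and 3 and WT replicate 1. It was also lost on both other normalizations, with only the arrays compared, with the replicate block and with an intensity trend.

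**Figure D3:**
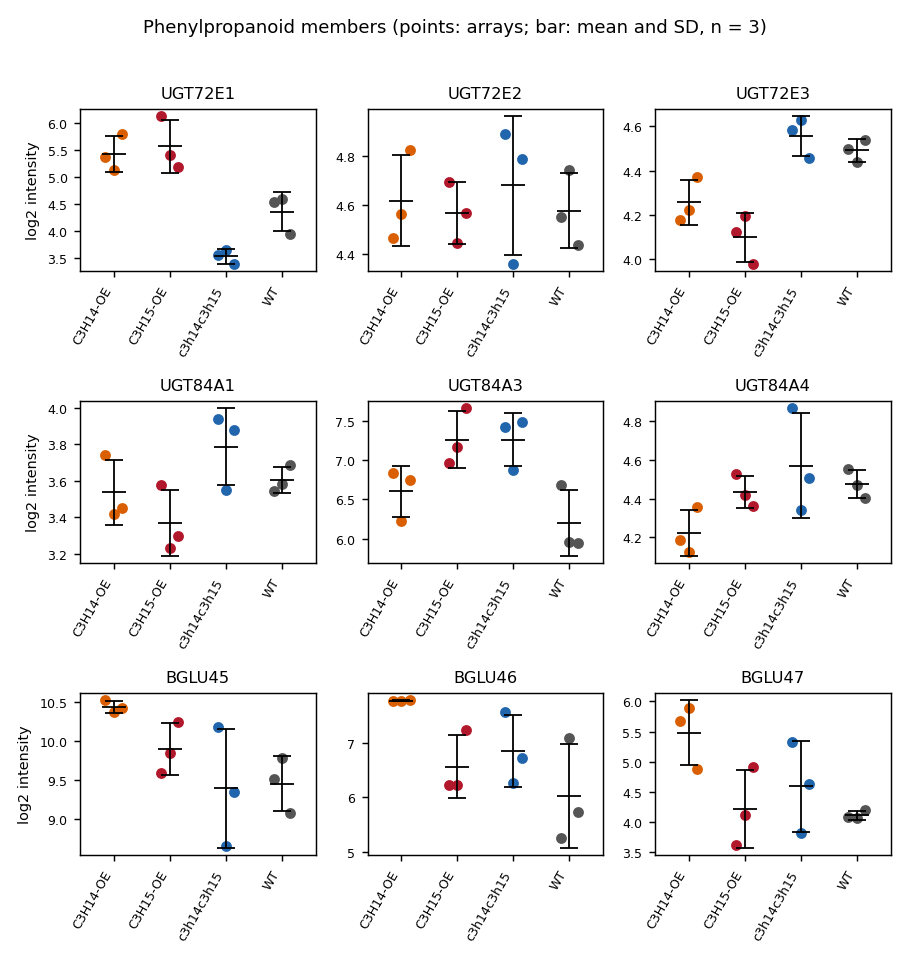
Log2 intensity of the 9 members that act on monolignols and hydroxycinnamates, with points for arrays and bars for mean and SD (n = 3), each gene on its own axis. UGT72E1 separates overexpressors, WT and double mutant, UGT84A3 is raised over WT in C3H15-OE and c3h14c3h15, and the 3 C3H14-OE arrays of BGLU46 lie between 7.78 and 7.79 while the 3 WT arrays run from 5.25 to 7.10.

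Abscisic acid is glucosylated by UGT71B6, UGT71B8 and UGT71C5, and its glucose ester is hydrolysed in the vacuole by BGLU33. BGLU33 read 9.38, 9.48 and 9.13 in C3H14-OE, 9.84, 9.46 and 9.54 in C3H15-OE, 8.14, 6.61 and 7.52 in c3h14c3h15, and 8.43, 8.98 and 8.04 in WT. The overexpressor arrays all lay above the other 6, and the double mutant overlapped WT through its replicate 1. BGLU33 was 2.19 higher in C3H15-OE than in the double mutant (4.57-fold, adjusted p = 0.00122, limma) and 1.91 higher in C3H14-OE (3.76-fold, adjusted p = 0.00475). Against WT it passed in no group: the difference was 0.85 for C3H14-OE (adjusted p = 0.305), 1.13 for C3H15-OE (0.0623) and -1.06 for the double mutant (0.0812).

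UGT71B6 read 5.48, 4.65 and 4.96 in C3H14-OE, 5.75, 5.66 and 4.63 in C3H15-OE, 4.39, 4.36 and 3.93 in c3h14c3h15, and 4.30, 4.39 and 4.19 in WT. The overexpressors lay above the other arrays, C3H15-OE replicate 3 only a little. It rose by 1.06 in C3H15-OE relative to WT (SE 0.28, adjusted p = 0.0469, limma), a call lost without any of 7 arrays (C3H15-OE replicates 1 and 2, c3h14c3h15 replicates 2 and 3 and each WT array, adjusted p from 0.0512 to 0.172), with only the arrays compared and without the 3 arrays that stood apart. Relative to the double mutant it was 1.12 higher in C3H15-OE (adjusted p = 0.0153), with 0.0590 to 0.0669 without C3H15-OE replicate 1 or 2 or c3h14c3h15 replicate 3.

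UGT71C5 read 7.45, 7.31 and 7.36 in C3H14-OE, 7.78, 7.56 and 7.46 in C3H15-OE, 6.84, 7.10 and 7.36 in c3h14c3h15, and 8.06, 7.68 and 7.50 in WT. The double mutant lay below WT without overlap, and 1 of its arrays reached the C3H14-OE values. UGT71C5 fell by 0.65 in c3h14c3h15 relative to WT (SE 0.16, adjusted p = 0.0433, limma), with 0.0518 to 0.140 without any of 8 arrays, all but C3H15-OE replicate 3, C3H14-OE replicate 3, c3h14c3h15 replicate 3 and WT replicate 3, and lost too with the replicate block, with array weights, with only the arrays compared and without the 3 arrays that stood apart. UGT71B8 had group means between 4.07 and 4.27 and changed in no comparison. Of the 4 measured members of 8 listed for abscisic acid, 1 rose in C3H15-OE and 1 fell in c3h14c3h15, where 3.09% and 3.17% of all probe sets did.

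Cytokinin N-glucosylation is the work of UGT76C1 and UGT76C2, which are adjacent genes. UGT76C2 read 5.40, 5.76 and 4.93 in C3H14-OE, 4.81, 5.04 and 5.03 in C3H15-OE, 4.72, 4.51 and 4.43 in c3h14c3h15, and 5.23, 5.73 and 5.30 in WT. The double mutant arrays were the lowest of the 12. UGT76C2 fell by 0.86 in c3h14c3h15 relative to WT (SE 0.20, 1.82-fold, adjusted p = 0.0293, limma), and the adjusted p was 0.0527 to 0.0944 without c3h14c3h15 replicate 2 or 3 or any WT array, and over the threshold with array weights. It was 0.81 higher in C3H14-OE than in the double mutant (adjusted p = 0.0203), with 0.0563 to 0.0687 without C3H14-OE replicate 1 or 2 or c3h14c3h15 replicate 2 or 3 and a loss of the call with only the arrays compared. UGT76C1 was 0.43 lower in c3h14c3h15 than in WT with an adjusted p of 0.0507, just over the threshold, at group means of 5.81 in c3h14c3h15 and 6.24 in WT. The 3 measured members of 6 listed for auxin (UGT74D1, UGT84B1 and UGT84B2) differed from WT by -0.54 to 0.26 and none passed. Of all probe sets 6.65% passed in C3H15-OE and 5.70% in c3h14c3h15, so this list is too short to read anything from that count.

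AT5G05890 lies on the same chromosome as UGT76C1 with 1 protein-coding gene between them. It was added to the members by name with earlier results of these data known, so its tests are no independent evidence. It read 6.25, 6.34 and 5.66 in C3H14-OE, 5.08, 4.58 and 4.69 in C3H15-OE, 5.49, 5.77 and 5.91 in c3h14c3h15, and 6.71, 6.33 and 6.48 in WT. C3H15-OE was the lowest group and the double mutant lay between it and WT, while C3H14-OE overlapped both the double mutant and, by a narrow margin, WT. Relative to WT it fell by 1.72 in C3H15-OE (SE 0.20, 3.30-fold, adjusted p = 0.00347, limma) and by 0.78 in c3h14c3h15 (SE 0.20, adjusted p = 0.0413). The call in C3H15-OE held under every alternative that refitted the data. That in c3h14c3h15 had an adjusted p of 0.0507 to 0.139 without any of 9 arrays, all but C3H14-OE replicates 2 and 3 and C3H15-OE replicate 1. The c3h14c3h15 call was also lost with the replicate block, with array weights and without the 3 arrays that stood apart.

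AT5G05890 was also the member that separated the overexpressors, with a log2 difference of 1.30 for C3H14-OE over C3H15-OE (SE 0.20, 2.46-fold, adjusted p = 0.0364, limma). That call was lost with only the arrays compared, with the replicate block and without any of 8 arrays (C3H14-OE replicates 1 and 2, C3H15-OE replicates 1 and 2, c3h14c3h15 replicate 3 and each WT array), where the adjusted p was 0.0531 to 0.189. Next in that comparison came BGLU31, with a log2 difference of -1.64 for C3H14-OE over C3H15-OE and an adjusted p of 0.0634.

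Salicylate and related defence compounds are substrates of UGT71C3 (methyl salicylate), UGT74F1, UGT76B1 and UGT76D1. UGT71C3 read 5.06, 4.36 and 6.0 in C3H14-OE, 4.66, 3.97 and 3.57 in C3H15-OE, 3.57, 3.77 and 4.05 in c3h14c3h15, and 3.81, 4.02 and 3.83 in WT. The C3H14-OE arrays spread over more than 1.5 on the log2 scale, with replicate 3 the highest of the 12 and replicate 2 close to the other groups. It was 1.35 higher in C3H14-OE than in the double mutant (SE 0.36, adjusted p = 0.0275, limma), a call lost without C3H14-OE replicate 1 or 3 or c3h14c3h15 replicate 1 or 2 (adjusted p from 0.0633 to 0.0769) without the 3 arrays that stood apart (0.154), with array weights and with only the arrays compared. Relative to WT it was 1.25 higher in C3H14-OE with an adjusted p of 0.208. The means of UGT74F1, UGT76B1 and UGT76D1 lay between 3.14 and 4.17 in each group and none passed in a pairwise comparison with WT. UGT76D1 passed the F test (adjusted p = 0.0362). Its overexpressor arrays all lay below WT, by 0.43 on average in C3H14-OE and 0.33 in C3H15-OE (adjusted p = 0.193 and 0.102, limma). Of the 6 measured members of 10 listed for salicylate and immunity, UGT73B5 was the one that passed in a pairwise comparison with WT. It fell in c3h14c3h15, where 3.17% of all probe sets did.

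Several changed glycosyltransferases have no role stated here. UGT85A2 read 7.00, 6.84 and 6.70 in C3H14-OE, 6.49, 6.39 and 5.96 in C3H15-OE, 5.41, 5.53 and 5.63 in c3h14c3h15, and 6.51, 6.67 and 6.17 in WT. The double mutant arrays lay below all others and the C3H14-OE arrays above all others. It fell by 0.93 in c3h14c3h15 relative to WT (SE 0.16, 1.90-fold, adjusted p = 0.0118, limma), and it was 1.32 higher in C3H14-OE (adjusted p = 0.00124) and 0.76 higher in C3H15-OE (adjusted p = 0.00741) than in the double mutant. The difference from WT held without each array in turn and was lost without the 3 arrays that stood apart (-0.76, adjusted p = 0.0848).

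UGT73B1, of the same subfamily as UGT73B5, read 7.19, 6.96 and 6.66 in C3H14-OE, 6.63, 6.89 and 6.46 in C3H15-OE, 5.61, 5.50 and 5.96 in c3h14c3h15, and 7.19, 7.22 and 6.05 in WT. The double mutant arrays were the lowest, and WT replicate 3 came close to them. UGT73B1 fell by 1.13 in c3h14c3h15 relative to WT (SE 0.28, adjusted p = 0.0380, limma), with 0.0546 to 0.136 without any of 7 arrays (C3H14-OE replicate 2, C3H15-OE replicate 1, each double mutant array and WT replicates 1 and 2). It was also lost with only the arrays compared, with array weights and without the 3 arrays that stood apart. It was higher than in the double mutant by 1.25 in C3H14-OE (adjusted p = 0.0137, or 0.0515 without C3H14-OE replicate 1) and by 0.97 in C3H15-OE (0.0275, or 0.0604 to 0.0959 without C3H15-OE replicate 1 or 2 or c3h14c3h15 replicate 1 or 2).

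UGT71B1 read 5.68, 5.28 and 5.70 in C3H14-OE, 6.23, 6.47 and 6.53 in C3H15-OE, 6.04, 5.66 and 5.96 in c3h14c3h15, and 5.20, 4.73 and 5.39 in WT. C3H15-OE was the highest group and WT the lowest, with C3H14-OE overlapping WT and the double mutant. UGT71B1 rose by 1.30 in C3H15-OE relative to WT (SE 0.18, 2.46-fold, adjusted p = 0.00567, limma), which held under every alternative that refitted the data. It rose by 0.77 in c3h14c3h15 (SE 0.18, adjusted p = 0.0326), with 0.0808 to 0.0948 without c3h14c3h15 replicate 1 or 3 or WT replicate 1 or 2, and lost also with only the arrays compared, with array weights and without the 3 arrays that stood apart.

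Beta-glucosidases without a role stated here gave 3 changes in C3H15-OE relative to WT. BGLU31 read 2.17, 2.18 and 2.03 in C3H14-OE, 4.27, 4.20 and 2.83 in C3H15-OE, 2.16, 2.34 and 2.45 in c3h14c3h15, and 2.21, 2.20 and 2.34 in WT. The gene was near the array's floor in 9 arrays and above it in the C3H15-OE arrays, replicate 3 less than the others. The log2 difference from WT was 1.51 (SE 0.29, adjusted p = 0.0161, limma), which reads as a lower bound because WT lay near the floor, and the adjusted p was 0.0504 to 0.0689 without C3H15-OE replicate 1 or 2 or WT replicate 1 or 3. Its adjacent gene BGLU32 stayed at group means of 1.91 to 2.07.

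BGLU40 read 7.49, 7.57 and 8.19 in C3H14-OE, 9.02, 8.16 and 8.71 in C3H15-OE, 7.67, 7.66 and 7.60 in c3h14c3h15, and 7.43, 7.49 and 7.35 in WT. C3H15-OE lay above WT and the double mutant, and C3H14-OE replicate 3 reached its lowest array. BGLU40 rose by 1.21 in C3H15-OE relative to WT (SE 0.21, 2.31-fold, adjusted p = 0.0118, limma), with 0.0542 without WT replicate 1. Relative to the double mutant it was 0.99 higher in C3H15-OE (adjusted p = 0.00722).

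BGLU41 went the other way. It read 4.35, 4.50 and 4.17 in C3H14-OE, 3.87, 3.89 and 4.30 in C3H15-OE, 4.94, 5.14 and 5.13 in c3h14c3h15, and 4.84, 4.68 and 4.69 in WT. Every overexpressor array lay below every WT array, and every double mutant array lay above WT. BGLU41 fell by 0.72 in C3H15-OE relative to WT (SE 0.14, adjusted p = 0.0146, limma), with 0.0622 to 0.0689 without C3H15-OE replicate 1 or 2 or WT replicate 1. It was lower than in the double mutant by 1.05 in C3H15-OE (adjusted p = 0.000663) and by 0.73 in C3H14-OE (adjusted p = 0.00660). BGLU44, whose product cleaves beta-mannosides, read 9.63, 9.64 and 8.98 in C3H14-OE, 8.21, 8.14 and 8.69 in C3H15-OE, 9.37, 10.00 and 9.53 in c3h14c3h15, and 9.21, 8.70 and 9.62 in WT. It was lowest in C3H15-OE, by 1.29 relative to the double mutant (adjusted p = 0.00563), and 0.83 lower than WT with an adjusted p of 0.0813.

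Another 5 calls against the double mutant were small steps close to the threshold. In C3H15-OE UGT71C5 and UGT76C1 were higher by 0.50 and 0.38 on the log2 scale (adjusted p = 0.0481 and 0.0345, limma), and the dim BGLU36 and UGT84A1 were lower by 0.45 and 0.42 (0.0350 and 0.0494). In C3H14-OE UGT76D1 was lower by 0.39 (0.0390). Each of the 5 was lost without the 3 arrays that stood apart, on both other normalizations and with only the arrays compared. Leaving out a single array ended the call for 9 of the 12 arrays for UGT71C5 and UGT84A1, 7 for UGT76D1 and 4 for BGLU36 and UGT76C1, and the highest adjusted p over all alternatives was 0.115 to 0.175.

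**Figure D4:**
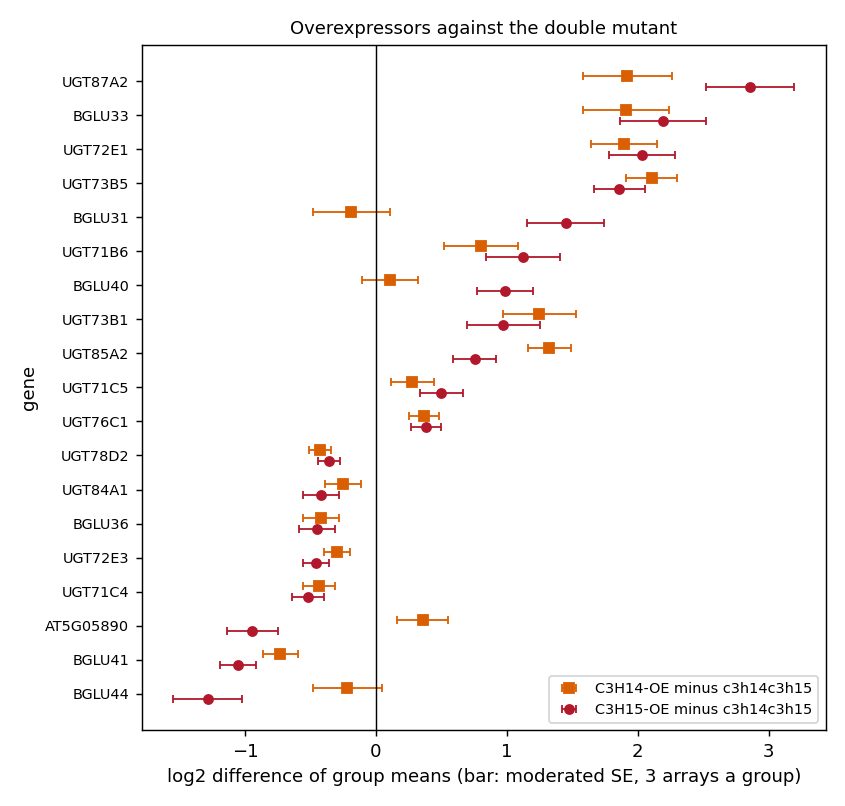
Log2 difference of each overexpressor from c3h14c3h15 (horizontal axis; bars are the moderated SE, 3 arrays a group) for the 19 members past the threshold in C3H15-OE against the double mutant. UGT87A2, BGLU33, UGT72E1 and UGT73B5 are between 1.86 and 2.86 higher in both overexpressors, while for BGLU31, BGLU40, AT5G05890 and BGLU44 the C3H14-OE point lies close to 0 or on the other side of it; the difference between the overexpressors was past the threshold for AT5G05890 alone of the 68 members.

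No member listed for flavonoids or glucosinolates passed against WT. UGT78D2, a flavonoid glucosyltransferase, read 6.57, 6.64 and 6.59 in C3H14-OE, 6.65, 6.65 and 6.72 in C3H15-OE, 7.06, 6.99 and 7.04 in c3h14c3h15, and 6.74, 6.72 and 6.81 in WT. The arrays of a group agreed closely, and the double mutant lay above all others. UGT78D2 was lower than in the double mutant by 0.43 in C3H14-OE (adjusted p = 0.00767, limma) and by 0.36 in C3H15-OE (adjusted p = 0.0111, or 0.0516 with only the arrays compared), while the double mutant was 0.27 above WT with an adjusted p of 0.0763. The difference for C3H14-OE had an adjusted p of 0.0512 without the 3 arrays that stood apart. UGT78D1, UGT78D3 and BGLU15, the flavonol rhamnosyltransferase, the flavonol arabinosyltransferase and an enzyme of flavonol bisglycoside breakdown, changed in no comparison.

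UGT74B1, which adds glucose in glucosinolate synthesis, read 9.72, 9.65 and 9.27 in C3H14-OE, 8.62, 8.97 and 9.07 in C3H15-OE, 9.48, 8.45 and 9.02 in c3h14c3h15, and 8.95, 8.85 and 8.79 in WT. C3H14-OE lay above WT by 0.68 without overlap, with an adjusted p of 0.254 (limma). None of the 7 measured members of 20 listed for glucosinolates and myrosinase-type enzymes differed from WT, beside 6.65% of all probe sets in C3H15-OE and 5.70% in c3h14c3h15, and a list of 7 is too short to read anything from that count. UGT71C4 read 7.67, 7.43 and 7.79 in C3H14-OE, 7.58, 7.68 and 7.38 in C3H15-OE, 7.99, 8.01 and 8.18 in c3h14c3h15, and 7.89, 7.69 and 7.74 in WT. It was lower than in the double mutant by 0.52 in C3H15-OE (adjusted p = 0.0120) and by 0.43 in C3H14-OE (0.0371, or 0.0507 to 0.132 without C3H14-OE replicate 1 or 2, C3H15-OE replicate 1 or c3h14c3h15 replicate 2 or 3), the C3H14-OE call also lost with the replicate block and with only the arrays compared. UGT88A1 read 9.34, 9.06 and 8.69 in C3H14-OE, 9.11, 9.34 and 9.36 in C3H15-OE, 9.81, 9.08 and 9.78 in c3h14c3h15, and 9.14, 8.82 and 8.80 in WT, and it changed in no comparison.

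Some members sit side by side on a chromosome. In the RefSeq annotation 35 members fall into 15 runs of adjacent protein-coding genes, the largest of 4 (UGT85A7, UGT85A2, UGT85A5 and UGT85A3). By the F test, which 19.1% of all probe sets passed, 8 runs had 0 changed members and 7 had 1, and whether neighbours changed together was not tested. In the run of 4 it was UGT85A2, and in that of UGT84A1, UGT84A3 and UGT84A4 it was UGT84A3. In these runs UGT71C3, UGT71C5, UGT76C1, UGT84A1 and BGLU45 missed the F test but each passed in a pairwise comparison given above. Some neighbours of a changed gene missed the threshold narrowly: UGT71C4 passed (adjusted p = 0.0404, F test in limma) beside UGT71C3 (0.0501) and UGT71C5 (0.0557), and UGT76C2 passed (0.0263) beside UGT76C1 (0.0542). Adjacent copies can be close in sequence, and the probe sequences were not analysed here, so cross-binding between them was not tested.

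Over the 12 arrays the single-gene probe sets most like UGT73B5 were those of AT1G75200, PCN and AT3G03920, with Pearson correlations of 0.967, 0.967 and 0.964. Those most like BGLU41 were iqd21, AT4G35320 and SP1L5, at 0.979, 0.979 and 0.977. The arrays come in 4 groups, so these correlations describe shared group differences and were not tested.

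Few other genes of the same pathways had a named probe set, so the surrounding pathways are thinly covered. Of 13 genes listed for the ER body, a beta-glucosidase store, and the lectins that bind its enzyme PYK10, 6 were measured. The lectin genes JAL23 and JAL34 rose by 1.65 and 1.05 in C3H15-OE relative to WT (adjusted p = 0.0140 and 0.0439, limma), where 3.09% of all probe sets rose. JAL23 was also 1.72 higher than WT in C3H14-OE and 0.95 higher in c3h14c3h15 without passing (adjusted p = 0.103 and 0.0916). JAL34 was 0.13 higher and 0.38 lower there (0.855 and 0.472). The dim lectin genes JAL33 and JAL22 were 0.36 and 0.08 lower in C3H15-OE than in WT without passing, and relative to the double mutant they fell there by 0.55 and 0.38 (adjusted p = 0.0112 and 0.0476). In the same list NAI1 and NAI2, a regulator and a structural protein of the ER body, had group means of 1.92 to 2.68. Of 14 genes listed for cytokinin and auxin metabolism 4 were measured, and in C3H15-OE AT1G14130 rose by 0.85 (adjusted p = 0.0111) and GH3.5, which conjugates auxin to amino acids, fell by 1.57 (adjusted p = 0.0372). GH3.5 was also 0.89 lower than WT in C3H14-OE and 1.14 lower in c3h14c3h15 without passing (0.341 and 0.111). AT1G14130 was 0.36 higher and 0.17 lower there (0.314 and 0.573). In that list GH3.3 was 1.99 lower in C3H15-OE and 2.10 lower in c3h14c3h15 than in WT without passing (adjusted p = 0.0691 and 0.0626).

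For glucosinolate synthesis and breakdown 2 of 28 genes were measured, and BCAT4, of methionine chain elongation, rose by 0.50 in C3H15-OE relative to WT (adjusted p = 0.0485, limma). BCAT4 was 0.71 higher than WT in C3H14-OE (adjusted p = 0.118) and 0.23 higher in c3h14c3h15 (0.351), neither past the threshold. For monolignol and lignin synthesis 1 of 17 was measured, HCT, which rose by 0.60 in c3h14c3h15 (adjusted p = 0.0453) and was 0.19 higher in C3H15-OE with an adjusted p of 0.483. The single measured genes of flavonoid synthesis (DFR) and of detoxification (GSTU25) differed from WT in no group, and 0 of the 11 genes listed for salicylate defence and 0 of the 11 for abscisic acid were measured. No gene of these lists passed against WT in C3H14-OE.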

How the data were processed

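The deposited intensities are linear values from RMA, according to the submitters' processing notes, which give no version. Their log2 was used throughout. The table has 22810 probe sets, of which 64 are controls; the remaining 22746 entered every test, dim signals included. Names came from the platform annotation, updated through the RefSeq table of assembly TAIR10.1; 13436 of 13513 single-gene probe sets matched it. The array's build is not named, so coordinates were not used.

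Differences were tested with limma 3.58.1 under R 4.3.3: 1 mean per group over 12 arrays (8 residual and 3.61 prior degrees of freedom), 6 contrasts and an F test of the 3 contrasts with WT, with Benjamini-Hochberg adjustment and a threshold of 0.05. The fit was also run on simulated data with independent noise for each probe set. Such data hold no arrays that stand apart, so that run cannot show how stable the calls are. The members, roles and lists were chosen with earlier results of these data known. Every array's value is given for members past the threshold (at most the 12 largest differences in a comparison), the 3 smallest p where none passed, the 3 strongest signals of each family, and AT5G05890. UGT73B5 and BGLU41 had the smallest F-test p of each family. Arrays were not treated as paired by replicate number, since 4 of 18 same-number pairs had deviations correlating over 0.1. The number of arrays limits the precision.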

Additional observations from a re-analysis of the deposited data

How the results depend on the processing

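Of 46 named differences, 33 had 22 alternatives and 13, of dim genes that the signal filter removed, had 21. Over these, 21 differences stayed on the same side of the threshold throughout and 0 changed direction. The alternatives that left out shared suffixes and that added the synonym genes reused the main fit, so they could not change a named difference. The calls against WT that held under every alternative were AT5G05890 and UGT71B1 in C3H15-OE and UGT73B5 in c3h14c3h15. Leaving out each array in turn gave 0 members changed against WT in C3H14-OE, 3 to 11 in C3H15-OE, against 10 with all arrays, and 2 to 9 in c3h14c3h15, against 8. The share of all probe sets moved too, over 0.980% to 8.88% in C3H15-OE and 1.59% to 6.30% in c3h14c3h15. In C3H15-OE the count was 3 without C3H15-OE replicate 1 or 2 or WT replicate 1 (1.34%, 1.49% and 0.980% of all probe sets) and 4 without WT replicate 3 (1.77%). In c3h14c3h15 it was 2 without WT replicate 2, 3 without WT replicate 1 or c3h14c3h15 replicate 3, 4 without c3h14c3h15 replicate 1 and 5 without WT replicate 3. In the same way 0 to 2 members differed between the overexpressors, 13 to 19 between C3H15-OE and c3h14c3h15, 7 to 15 between C3H14-OE and c3h14c3h15 (7 without C3H14-OE replicate 1), and 13 to 21 by the F test, beside at most 0.805%, 13.7% to 23.3%, 8.26% to 15.0% and 11.4% to 18.8% of all probe sets. Without the dimmest 40% of probe sets C3H15-OE had 5 (10.9% of the probe sets kept), since the other 5 were not tested. With only the arrays compared there were 5 in c3h14c3h15 against WT, 0 between the overexpressors and 8 between C3H14-OE and c3h14c3h15 (2.39%, 0% and 8.12% of all probe sets). Array weights gave 2 in c3h14c3h15 and 11 between the overexpressors (3.28% and 3.87% of all probe sets). Without the 3 arrays that stood apart there were 1 in C3H14-OE, 2 in c3h14c3h15 and 4 between the overexpressors (0.835%, 1.68% and 1.11% of all probe sets). An added 2-fold threshold, chosen after the data were seen, left 3 in c3h14c3h15, 8 between C3H15-OE and c3h14c3h15 and 8 between C3H14-OE and c3h14c3h15 (1.27%, 5.87% and 3.34% of all probe sets). With the replicate number as a block, C3H14-OE had 0 (0.0176% of all probe sets), C3H15-OE 9 (4.62%) and c3h14c3h15 6 (4.29%) against WT. With this block there were 0 between the overexpressors (0.0659%) and 17 by the F test (15.5%). Against c3h14c3h15 there were 18 in C3H15-OE (21.1%) and 10 in C3H14-OE (12.8%). The causes of these shifts were not tested. No member's probe set had a shared suffix, and adding the 6 genes known by synonym, also chosen after the data were seen, changed no count.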

Other observations

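The 10 probe sets left outside the counts belong to the same families, and none passed against WT in any group (limma). GT72B1, a UDP-glycosyltransferase under another symbol, averaged 9.49 ± 0.16 in C3H14-OE, 9.68 ± 0.08 in C3H15-OE, 9.69 ± 0.70 in c3h14c3h15 and 9.13 ± 0.34 in WT (log2 intensity, SD, n = 3 each). The probe set shared by UGT73B2 and UGT73B3 averaged 4.25 ± 0.59 in C3H14-OE, 4.95 ± 0.36 in C3H15-OE, 4.05 ± 0.03 in c3h14c3h15 and 4.18 ± 0.35 in WT. It was 0.77 higher in C3H15-OE than in WT without overlap, with an adjusted p of 0.112, and it was 0.91 higher in C3H15-OE than in the double mutant (adjusted p = 0.0342), also without overlap. PYK10, the main beta-glucosidase of root ER bodies, averaged 2.12 in C3H14-OE, 2.15 in C3H15-OE, 2.13 in c3h14c3h15 and 2.25 in WT.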
